A study of Mus musculus with 14 samples.

Results

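Epithelial cells hold together through proteins of adherens and tight junctions and keep their identity through a small set of regulators. This report describes open chromatin around 10 such mouse genes: Epcam, Cdh1, Cldn3, Cldn4, Cldn7, Esrp1, Esrp2, Grhl1, Grhl2 and St14. The 10 genes were named as a list, and every peak from 20 kb before to 20 kb after a gene body was taken. Overlapping peaks of the lists were merged into sites, which gave 86 sites around the members among 108795 sites in all, of which 75075 lay within the same distance of any of 22350 protein-coding genes.

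Bulk ATAC-seq, in which a transposase inserts adaptors into accessible DNA, had been done on 4T1 cells, a cultured mouse mammary tumor line. Cells were kept in normoxia or at 1% O2 for 6, 12, 24, 36, 48 or 72 h, with 2 samples in each of the 7 groups and 14 samples in all. The labels give no oxygen level for normoxia, and the study describes the control of a protein staining on this line as kept in less oxygen than air holds, without tying it to these samples. The time course addressed whether low oxygen by itself alters chromatin access in tumor cells. The lists used here pool both samples of a group, so there was 1 list per condition, no replicate error and no test between conditions, and every comparison with normoxia used the same normoxia list.

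E-cadherin, the product of Cdh1, joins neighboring epithelial cells at adherens junctions, while the claudins seal tight junctions and EpCAM is an adhesion protein of the epithelial surface. Esrp1 and Esrp2 encode splicing regulators that maintain epithelial isoforms, and the Grainyhead-like factors encoded by Grhl1 and Grhl2 activate junction genes. Matriptase, the product of St14, is a membrane serine protease of epithelia. Loss of these genes' activity accompanies epithelial-mesenchymal transition, in which repressors of the Snail and Zeb families bind E-box sequences in the Cdh1 promoter.

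Stretches of promoter sequence are shown first because the letters they share set the member promoters apart in a count. The E-box letters CAGGTG were searched on either strand, up to 100 bp from the summit, and were found in 7 of the 14 sites in member promoters (50.0%). The same letters were found in 13.3% of the 15753 promoter sites of all genes. Each line below gives 30 bases of mm9 around the matches, 5′ to 3′ on the strand of the gene, with the E-box letters in capitals.
Epcam, chr17:88035905-88035934, plus strand: cgggacagcgcaCACCTGgagagggggcga
Cdh1 first pair, chr8:109127173-109127202, plus strand: cttggctgcCACCTGCAGGTGcgtccccag
Cdh1 downstream match, chr8:109127226-109127255, plus strand: tgcctgcgggctCACCTGgcggccgcagcc
Esrp1, chr4:11313963-11313992, minus strand: gccgggcgccgcCAGGTGtctcttacctgc
Esrp2 at the start, chr8:108660768-108660797, minus strand: tacacccggccgCAGGTGccgcccccaaca
Esrp2 intron, chr8:108659201-108659230, minus strand: gggCAGGTGtgaacctccccCACCTGtctg
Grhl2, chr15:37162716-37162745, plus strand: ccaatggcagctCACCTGagggagcaccgc
St14, chr9:30939454-30939483, minus strand: gaccggccgcaaCAGGTGtgcgggcgccgg

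The Cdh1 promoter was the only one of the 14 with 3 matches, of which the first 2 abut as a palindrome. Its stretch before the annotated 5′ untranslated region, 169 bases with the E-box letters in capitals, is shown whole since this promoter is the textbook target of the repressors named above.
Cdh1 promoter, chr8:109127082-109127250, plus strand: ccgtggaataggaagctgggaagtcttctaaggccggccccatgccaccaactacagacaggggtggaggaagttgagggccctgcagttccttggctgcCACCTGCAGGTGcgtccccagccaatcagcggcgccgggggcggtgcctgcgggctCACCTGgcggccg
Searched over the whole site, the E-box letters were in 12 of the 14 member promoter sites (85.7%) and in 45.8% of all promoter sites. A match is a run of letters and not a measured binding site.

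The 7 lists held 49006 to 81732 peaks. Background reads per summit window, recovered from the deposited statistics, were lowest in normoxia at 0.926 and ran from 1.85 to 3.25 in the hypoxia lists, and the weakest called summit had 5 reads in normoxia and 7 to 11 reads in hypoxia. Presence of a weak peak was therefore not equally likely to be called in the 7 lists. Fold enrichment, the deposited ratio of summit reads to local background, was divided by the median of its list over the 36113 sites with a peak in all 7 lists, and this relative enrichment is the scale of all comparisons between lists. In bulk cells a site open in fewer cells and a site less open per cell cannot be told apart. Keratin genes of the epithelial marker list, Krt8 and Krt18, were open at the promoter in all 7 lists, as were Epcam and Cdh1. The immune and endothelial markers Ptprc, Cd3e and Cdh5 had a promoter peak in 0 lists, while Lyz2 had one in 1 list, Pecam1 in 3, Col1a1 in 5 and the fibroblast marker Pdgfra in 7, and the part of such cells or genes in the values below was not tested.

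The promoters of the members carried peaks at nearly every time. A peak within 1 kb of an annotated start was present in all 7 lists for 9 of the 10 genes, against 46.6% of all protein-coding genes. The exception was Cldn7, with no such peak in any list. Among promoter sites of any gene inside the windows, 16 of 21 were in all 7 lists (76.2%), against 65.6% of promoter sites near all genes. Among the other sites 25 of 65 were in all 7 lists (38.5%), against 28.1%. These shares describe the list and were not tested.

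**Figure D1:**
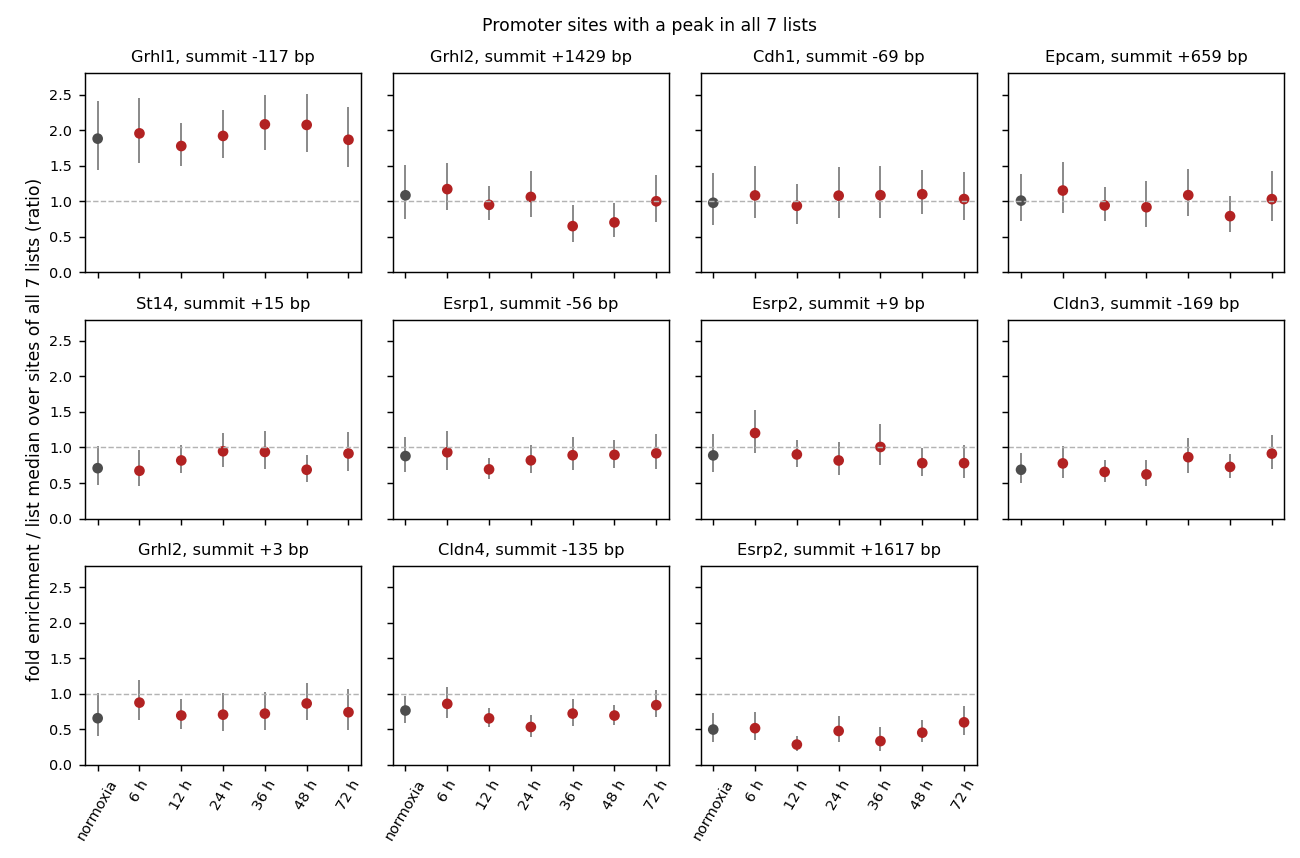
Relative enrichment (fold enrichment divided by the list median, a ratio, linear axis) of the 11 member promoter sites with a peak in all 7 lists, with normoxia in grey and hours of 1% O2 in red, and with bars for 95% counting intervals of the summit reads. Panels are ordered by median percentile. Grhl1 sits between 1.78 and 2.08 in all lists and Esrp2 at +1617 bp between 0.286 and 0.598.

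Epcam, on chromosome 17 from 88035319 to 88050446 (plus strand, mm9), had the fewest sites, 3. Its promoter site spanned chr17:88035018-88036783 with the summit in the first exon, +659 bp from the start. Fold enrichment there was 8.26 in normoxia and 6.72, 8.44, 7.93, 8.09, 6.51 and 7.09 from 6 to 72 h. On the relative scale the promoter lay between 0.790 and 1.15, with the lowest value at 48 h and the highest at 6 h, and normoxia at 1.01 inside that range. In summit reads its log2 ratio to normoxia was -0.83 at 24 h (interval -1.56 to -0.11) and -0.75 at 48 h (interval -1.43 to -0.06). At the other times the interval included 0. The strongest distal site, at -15835 bp between genes, had a fold enrichment of 8.48 in normoxia and 6.94, 12.2, 8.06, 11.7, 10.7 and 10.6 in hypoxia. Its relative enrichment was above that of normoxia at 5 of the 6 times (at 4 without scaling). It passed 1.5-fold at 36 h (ratio 1.52, 18 reads in normoxia and 38 at 36 h), but not without scaling. The counting interval of the log2 read ratio, -0.15 to 1.59, included 0, whereas at 72 h, at a relative log2 ratio of 0.58 just under the limit, the log2 read ratio was 1.18 with an interval of 0.39 to 2.04. A weaker site at -19042 bp was absent in normoxia and at 36 h.

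Cdh1, on chromosome 8 from 109127251 to 109194146 (plus strand), had 15 sites, the most of any member, of which 6 were in all 7 lists. The promoter summit lay at -69 bp, in the sequence printed above. Fold enrichment was 8.01 in normoxia and 6.32, 8.40, 9.34, 8.08, 9.06 and 7.09 in hypoxia. Relative enrichment of the Cdh1 promoter ran from 0.935 at 12 h to 1.10 at 48 h, with normoxia at 0.978. Its 95% counting intervals were wider than this range, for example 0.661 to 1.40 in normoxia from 28 summit reads. Further peaks within 1 kb of an annotated Cdh1 start were sporadic, with 1 at +897 bp at 72 h only and 1 at +1365 bp in normoxia and at 24 h. Introns of Cdh1 held 10 of the non-promoter sites of the members. The strongest intronic site, at +5183 bp, had relative enrichments from 0.620 at 36 h to 0.913 at 6 h, with 0.807 in normoxia. In summit reads its log2 ratio to normoxia was -0.93 at 24 h (interval -1.75 to -0.12) and -0.88 at 36 h (interval -1.74 to -0.05). At the other times the interval included 0.

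An intronic Cdh1 site at +12782 bp was in all 7 lists and held 1 match to AACNGGTT, the Grainyhead-like consensus, which is shown here in capitals because Grhl1 and Grhl2 are themselves members.
Cdh1 intron, chr8:109139933-109140133, plus strand: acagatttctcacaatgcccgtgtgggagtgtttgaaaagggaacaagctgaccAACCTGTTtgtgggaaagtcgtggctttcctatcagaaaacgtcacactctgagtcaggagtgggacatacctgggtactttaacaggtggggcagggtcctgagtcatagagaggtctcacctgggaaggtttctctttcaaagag
Fold enrichment at this site was 3.96 in normoxia and 3.63, 5.33, 4.47, 4.59, 4.78 and 3.98 in hypoxia. On the relative scale all 6 hypoxia values, 0.516 to 0.622, lay above the normoxia value of 0.483, by less than 1.5-fold in each case, whereas unscaled the 6 h value lay below it.

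Cldn3 and Cldn4 are neighbors on chromosome 5, and their windows shared 1 site. The Cldn3 promoter (summit at -169 bp, chr5:135461475-135462292) had fold enrichments of 5.63 in normoxia and 4.54, 5.89, 5.38, 6.44, 6.00 and 6.29 in hypoxia. The Cldn4 promoter (summit at -135 bp, chr5:135422385-135423227) had 6.26 in normoxia and 5.02, 5.87, 4.62, 5.38, 5.72 and 5.78 in hypoxia. The relative values ran from 0.621 to 0.914 for Cldn3 and from 0.533 to 0.858 for Cldn4, both lowest at 24 h, and on this scale neither promoter passed 1.5-fold at any time. In summit reads both passed it at 24 h, with a log2 ratio to normoxia of -1.02 (interval -1.58 to -0.47) for Cldn4 and -0.59 (interval -1.23 to 0.05) for Cldn3. The site common to both windows, at -19566 bp from Cldn3, was highest in normoxia. Its fold enrichment was 10.6 in normoxia and 6.04, 8.77, 6.67, 7.40, 9.13 and 7.85 in hypoxia. At 24 h its ratio to normoxia was 0.596, with 43 reads in normoxia and 29 at 24 h, and the interval of the log2 read ratio was -1.92 to -0.48. The Cldn3 site at -4689 bp was also lower than in normoxia at all 6 times, with a mean log2 ratio of -0.33. Its read intervals included 0 at every time.

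The strongest distal Cldn3 site lay past the gene end, at +15354 bp from the gene start. In contrast, it was above normoxia at all 6 times on the relative scale and at 5 without scaling. Its fold enrichment was 6.97 in normoxia and 6.51, 9.17, 10.2, 7.97, 9.96 and 7.67 in hypoxia, and the mean log2 ratio was 0.39. With 16 reads in normoxia, its read intervals included 0 at every time. The Cldn4 site at -10687 bp had a mean log2 ratio of 0.40 and passed 1.5-fold at 6 h only (ratio 1.52). It did not pass without scaling or when scaled by promoter sites, and its read interval at 6 h, -0.64 to 1.34, included 0. The strongest distal Cldn4 site, at -12387 bp, had relative enrichments from 0.849 to 1.22 around 1.12 in normoxia. Past the Cldn3 gene, the site at +15354 bp and its neighbor at +16049 bp, found in normoxia and at 12 h only, each held 1 Grainyhead-like match, in capitals.
Cldn3 at +15354 bp, chr5:135477338-135477538, plus strand: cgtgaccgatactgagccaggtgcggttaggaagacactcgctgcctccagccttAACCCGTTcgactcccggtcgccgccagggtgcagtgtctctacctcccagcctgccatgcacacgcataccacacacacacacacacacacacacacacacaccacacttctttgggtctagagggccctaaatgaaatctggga
Cldn3 at +16049 bp, chr5:135478033-135478233, plus strand: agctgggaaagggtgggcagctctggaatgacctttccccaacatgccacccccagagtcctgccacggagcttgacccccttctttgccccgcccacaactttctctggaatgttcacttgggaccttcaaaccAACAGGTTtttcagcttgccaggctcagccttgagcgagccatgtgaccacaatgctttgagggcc
With the Cdh1 intron these were the only 3 of the 65 non-promoter member sites with a Grainyhead-like match near the summit (4.62%), against 1.84% of the 59322 such sites near all genes. Of the member promoter sites 0 of 14 held one near the summit, against 1.21% of all promoter sites. Searched over the whole site, the match was in 3 of 65 non-promoter member sites (4.62%) against 3.93%. In member promoter sites it was then in 1 of 14 (7.14%) against 5.36%.

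Cldn7, on chromosome 11 from 69778281 to 69781387 (plus strand), differed from Cldn3 and Cldn4 in having no promoter peak at the starts of the annotation used here. Other annotations were not checked for a start nearer its peaks. Its nearest sites lay at -3236 and -2725 bp and were each found in 4 lists. The site at -3236 bp had fold enrichments of 3.63, 3.59, 4.22 and 4.55 in normoxia and at 12, 24 and 48 h. The site at -2725 bp was absent in normoxia and had 5.69, 5.27, 4.55 and 3.12 at 12, 24, 48 and 72 h. Both were weak, with 6 to 18 summit reads, and both were missing in the 6 h and 36 h lists. In those lists the reads of the others, scaled by median summit reads over sites in all 7 lists, came to fewer than needed. Scaling by genome background would give more reads at 6 h and was not done. The need at the background of the nearest peak was 11 reads at 6 h and 12 at 36 h. That peak lay 18187 bp or more away, and at the genome background of the 36 h list 8 reads sufficed, so the need at the sites themselves was not measured.

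The splicing regulator gene Esrp1 lies on chromosome 4 from 11259080 to 11313930 (minus strand). Its promoter site (summit at -56 bp, chr4:11313576-11314679) had fold enrichments of 7.20 in normoxia and 5.45, 6.21, 7.10, 6.64, 7.39 and 6.32 in hypoxia. The relative range was 0.692 at 12 h to 0.933 at 6 h, around 0.879 in normoxia, and a site at -1511 bp was present in all 7 lists as well, between 0.652 and 0.869. A second Esrp1 promoter site, near an internal start at +20563 bp, was called at 36 and 48 h only. Past the 3′ end, at +63339 bp, a site was absent in normoxia and called at all 6 hypoxia times. Its fold enrichment was 3.28, 3.23, 3.38, 4.11, 6.38 and 4.98 from 6 to 72 h, highest at 48 h. It lay 651 bp from the nearest normoxia summit, which belonged to the promoter of Dpy19l4. The site began at 11250398, and that promoter site, found in all 7 lists, ended at 11250303. With peaks within 200 bp merged, it would join that promoter site and so have a normoxia peak.

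Esrp2, on chromosome 8 from 108654219 to 108660874 (minus strand), had 2 promoter sites in all 7 lists. The site at the start (summit at +9 bp) had fold enrichments of 7.28 in normoxia and 7.03, 8.10, 7.08, 7.51, 6.43 and 5.37 in hypoxia. The intronic site at +1617 bp, near further annotated starts, had 4.07 in normoxia and 3.02, 2.56, 4.13, 2.49, 3.73 and 4.12 in hypoxia. The start site was 1.20 on the relative scale at 6 h and 0.779 at both 48 and 72 h, around 0.889 in normoxia. The intronic site was the weakest of all promoter sites found in every list and passed the lower 1.5-fold limit at 12 h, with a ratio of 0.575. Its summit had 23 reads in normoxia and 27 at 12 h, and the interval of the log2 read ratio, -1.63 to 0.10, included 0. The 2 other Esrp2 sites that belong to no promoter, at -1342 and +9681 bp, were found in 3 and 2 lists.

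Grhl1, on chromosome 12 from 25257152 to 25302256 (plus strand), had the highest promoter signal of the members. Fold enrichment at its promoter (summit at -117 bp, chr12:25256671-25257542) was 15.4 in normoxia and 11.4, 16.0, 16.6, 15.5, 17.1 and 12.8 in hypoxia, from 60 to 140 summit reads. This placed the site between percentiles 97.5 and 99.9 of all sites of a list, above every other member promoter in every list. Relative enrichment ranged from 1.78 to 2.08, with 1.88 in normoxia. In summit reads the log2 ratio to normoxia was 0.48 at 24 h (interval 0.03 to 0.95) and 0.55 at 36 h (interval 0.09 to 1.03). At the other times the interval included 0. The sequence around the summit is shown for this strongest promoter, with the 2 matches to the KLF/SP letters GGGCGG in capitals. It held no E-box letters.
Grhl1 promoter, chr12:25256935-25257135, plus strand: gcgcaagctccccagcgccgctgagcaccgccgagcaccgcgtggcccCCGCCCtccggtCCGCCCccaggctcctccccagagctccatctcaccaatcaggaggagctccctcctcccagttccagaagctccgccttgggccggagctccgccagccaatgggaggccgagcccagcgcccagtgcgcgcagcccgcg

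The largest difference from normoxia among the member sites in all 7 lists also belonged to Grhl1, at a site past its 3′ end, +51600 bp from the start (chr12:25308489-25309056). Fold enrichment was 3.63 in normoxia and 4.05, 7.07, 11.5, 5.90, 4.55 and 3.69 from 6 to 72 h, from 6, 19, 28, 35, 18, 15 and 12 summit reads. The values were highest at 24 h and near that of normoxia at 72 h. The ratio to normoxia on the relative scale was 2.98 at 24 h, and it passed 1.5-fold at 6, 12, 24 and 36 h. At 6 h it did not pass without scaling or when scaled by promoter sites. The log2 read ratio at 24 h was 1.92 with a counting interval of 0.66 to 3.46. At 12 and 36 h the intervals included 0. The intronic site at +28737 bp went the other way, with the lowest mean log2 ratio of the member sites (-0.40). Its fold enrichment was 9.23 in normoxia and 5.58, 6.65, 7.07, 6.90, 6.78 and 6.12 in hypoxia. The read intervals of this site included 0 at every time. The strongest intronic Grhl1 site, at +21291 bp, had relative enrichments from 1.00 in normoxia to 1.41 at 24 h, under 1.5-fold at every time. In summit reads its log2 ratio was 0.84 at 24 h (interval 0.08 to 1.65) and 0.99 at 36 h (interval 0.22 to 1.81). At 72 h it was 0.86 (interval 0.09 to 1.69), and at the other times the interval included 0. Another 6 Grhl1 sites were each called in 1 list.

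Grhl2, on chromosome 15 from 37162791 to 37293324 (plus strand), had 12 sites along the largest gene body of the members. The promoter summit at +3 bp had fold enrichments of 5.38 in normoxia and 5.12, 6.23, 6.12, 5.37, 7.12 and 5.09 in hypoxia. A second promoter site, in an intron at +1429 bp, had 8.87 in normoxia and 6.84, 8.52, 9.19, 4.84, 5.79 and 6.88 in hypoxia. This second site passed the lower limit at 36 h (ratio 0.599) and 48 h (ratio 0.648), and at 72 h its relative enrichment was 0.999 against 1.08 in normoxia. Its read intervals included 0 at both times. The first site was above normoxia at all 6 times, at relative values of 0.694 to 0.876 against 0.656, but without scaling it lay below normoxia at 6, 36 and 72 h.

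The intronic Grhl2 site at +80095 bp, the strongest outside its promoters, had fold enrichments of 6.86 in normoxia and 7.31, 8.79, 9.38, 6.52, 11.6 and 7.63 in hypoxia. It passed 1.5-fold at 48 h (ratio 1.67) with a read interval of -0.06 to 1.89. At 6 h the read interval, 0.02 to 2.06, lay above 0, and at the remaining times it included 0. The intronic site at +22739 bp passed 1.5-fold at 6, 12 and 48 h, was absent at 36 h, and had 5 reads in normoxia, the fewest that list could call, at a -log10 q of 1.43. At 6 h it did not pass without scaling. Sites at -6083 and +95845 bp were found in normoxia only, with fold enrichments of 4.15 and 3.63.

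St14, on chromosome 9 from 30896987 to 30939438 (minus strand), had 11 sites, none of which was found in 1 list alone. The promoter site (summit at +15 bp) had fold enrichments of 5.81 in normoxia and 3.93, 7.34, 8.20, 6.99, 5.66 and 6.30 in hypoxia. Its relative enrichment was lowest at 6 h (0.673) and 48 h (0.687), near normoxia (0.709), and highest at 24 h (0.947). By mean percentile the strongest non-promoter site of any member was the St14 site at -16466 bp, with 12.9 in normoxia and 10.0, 12.4, 12.2, 11.9, 10.4 and 8.01 in hypoxia. The intronic site at +14217 bp had a mean log2 ratio of -0.32, with its lowest relative value at 72 h (0.522). Its read intervals included 0 at every time.

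An intronic St14 site at +11089 bp (chr9:30927901-30928632) had no peak in normoxia and one at each of the 6 times. Its fold enrichment was 3.35, 3.96, 3.40, 3.50, 4.43 and 6.10 from 6 to 72 h, with 32, 67, 45, 39, 78 and 88 summit reads. The value at 72 h was the highest and the first 4 lay within 3.35 to 3.96. Scaled by the median summit reads of each list over sites in all 7 lists, these reads correspond to 26.8 to 65.4 in normoxia. That is above the 16 reads that a normoxia peak needed at the background of the nearest one, 1634 bp away. Genome background was 0.926 reads in normoxia and 1.85 to 3.25 in hypoxia. Scaling by it would give fewer reads and was not done. The sequence around the summit of the +11089 bp site is shown. This site had the most reads of the 3 member sites found at every time of hypoxia but not in normoxia. It is all in lower case since 0 of the 8 motifs searched matched.
St14 intron, chr9:30928249-30928449, minus strand: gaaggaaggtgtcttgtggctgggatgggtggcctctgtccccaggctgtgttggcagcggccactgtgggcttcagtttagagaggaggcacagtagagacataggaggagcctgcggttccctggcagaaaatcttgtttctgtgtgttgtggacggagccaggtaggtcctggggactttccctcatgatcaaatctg

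**Figure D2:**
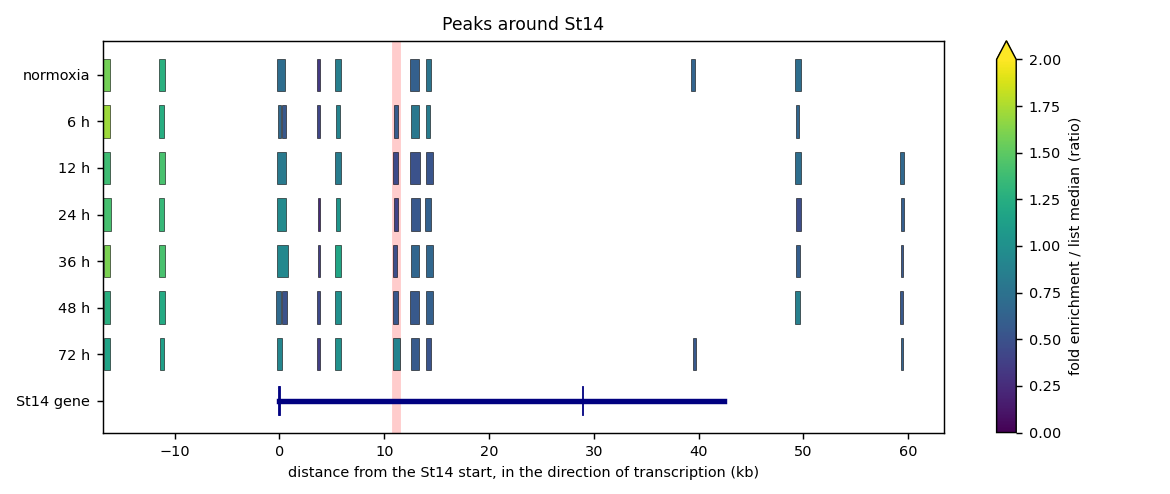
Peaks of the 7 lists around St14 by distance from its start in the direction of transcription (kb), colored by relative enrichment (ratio), with the gene body and its annotated starts in blue below. The site at +11089 bp, shaded, is empty in normoxia and filled at all 6 times of hypoxia, while the promoter is filled in all 7 lists.

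St14 was 1 of 3 members with such a site. Of the 86 member sites 3 (3.49%) were called in each of the 6 hypoxia lists and not in normoxia, against 1.42% of sites near all genes. The others were the Esrp1 site at +63339 bp and a Cldn4 site at -8718 bp, where fold enrichment was 3.43, 3.69, 3.0, 2.31, 3.53 and 2.84 from 6 to 72 h. Scaled in the same way as the St14 reads, the Cldn4 reads came to 18.4 to 31.1 in normoxia with 13 needed. The Esrp1 reads came to 11.5 to 26.6 with 10 needed. Scaling by genome background would again give fewer reads and was not done. The need was taken from the nearest normoxia peak and not measured at the site. With peaks within 200 bp merged, the Esrp1 site would not be among the 3. In the reverse direction 3 sites (3.49%) were found in normoxia only, against 2.70%: the pair near Grhl2 named above and a weak site at -16353 bp from Cldn7, in the promoter of Slc2a4, with a fold enrichment of 4.15.

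Counted more loosely, 29 of the 86 sites (33.7%) were called in 1 or more hypoxia lists and not in normoxia, against 44.1% near all genes. Of these 29 sites 16 were found in 1 list. In the other direction 16 sites (18.6%) had a normoxia peak that was missing at 1 or more times, against 20.0%. Sites missing in a single hypoxia list were the Grhl2 site at +22739 bp at 36 h, the St14 site at +3767 bp at 12 h and the St14 site at +49307 bp at 72 h. Over all lists 41 member sites were in 7 lists, 19 in 1 list and 26 in between.

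**Figure D3:**
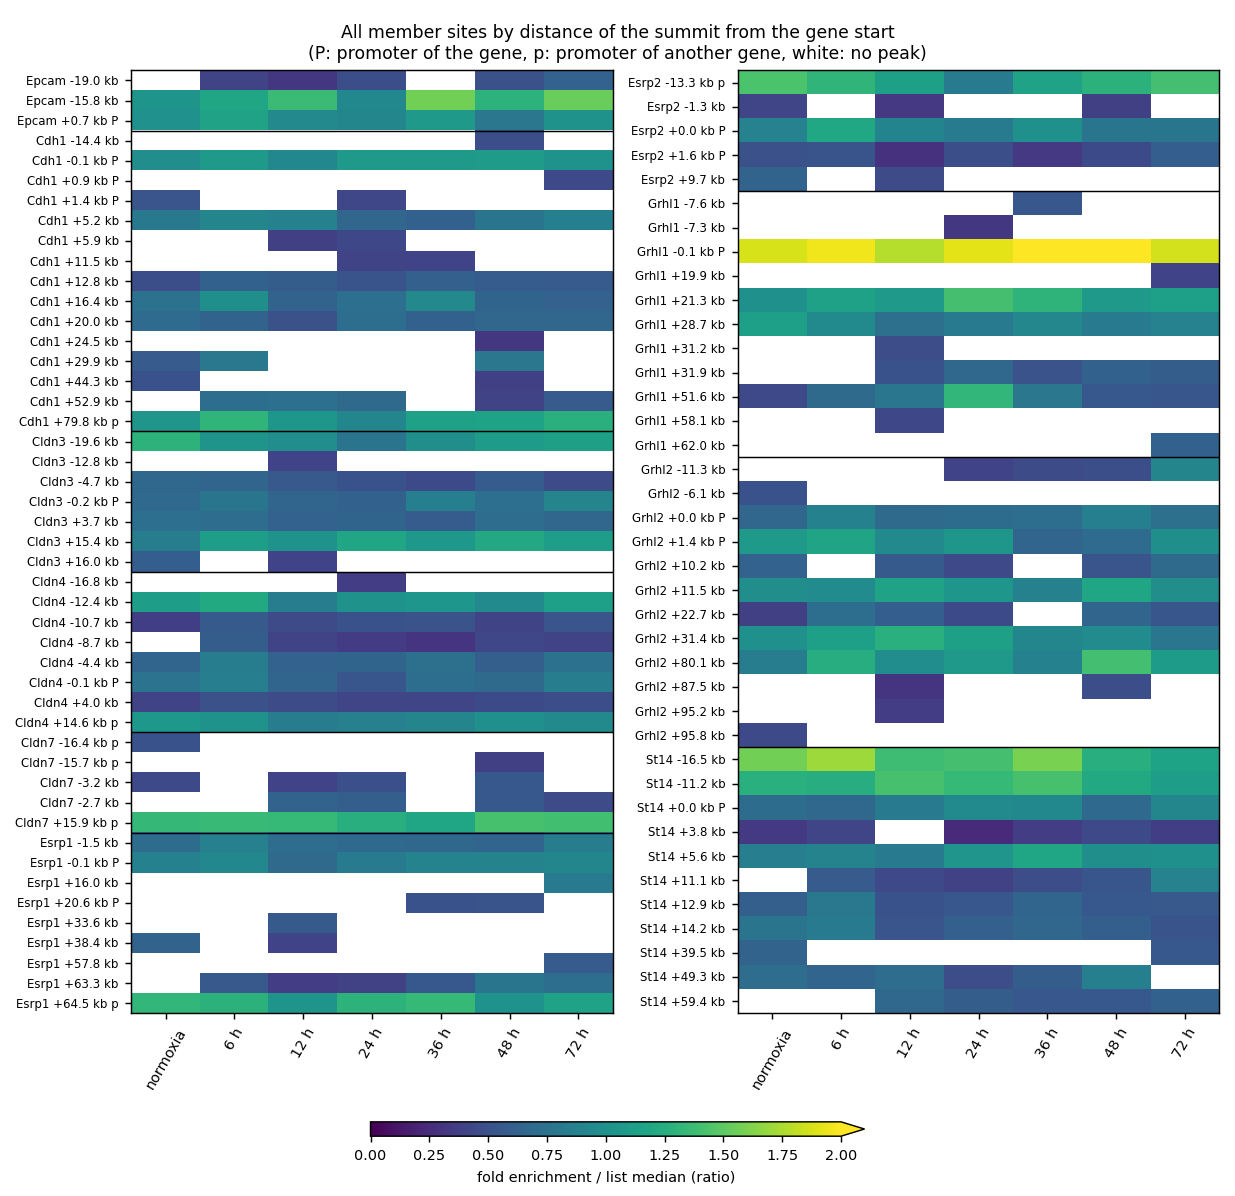
Relative enrichment (ratio, color) of all 86 member sites in the 7 lists, one line per site, named by the gene and the distance of the summit from its start in kb; white means no peak, P a promoter site of the gene and p a promoter site of another gene. The Grhl1 promoter is the brightest line and the sites called in 1 list reach at most 0.825.

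Few member sites passed 1.5-fold. At 6 h 3 of the 45 member sites with a peak in both lists were up and 0 down, against 7.52% up and 5.31% down of all sites near genes. At 12 h 2 of 49 were up and 4 down, against 6.33% and 6.37%. At 24 h 1 of 47 was up and 2 down, against 5.47% and 7.44%. These shares were at or below the background except for the 4 sites down at 12 h (8.16%), which were the Esrp2 intronic promoter, the Grhl1 site at +28737 bp, the Cldn3 site at +16049 bp and the Esrp1 site at +38403 bp. Without scaling, or when scaled by promoter sites, 1 member site was down at 12 h. At 36 h 2 of 43 were up and 1 down, against 5.84% and 6.98%. At 48 h 2 of 49 were up and 1 down, against 6.30% and 6.47%. At 72 h 0 of 45 passed the limit in either direction, against 8.63% up and 6.71% down. The 10 upward values came from 5 sites, of which the Grhl1 site at +51600 bp gave 4 and the Grhl2 site at +22739 bp gave 3. Without these 2 sites, both with 6 or fewer normoxia reads, 3 upward values remained. The balance of 10 upward and 8 downward values depended on the scale. Fold enrichment as deposited gave 6 upward and 17 downward values, and summit reads gave 25 of each. By reads, 7 sites were up and 0 down at 6 h, 3 and 5 at 12 h, and 2 and 10 at 24 h. At 36 h the read counts were 3 and 6, at 48 h 7 and 2, and at 72 h 3 and 2. The share of all sites past the limit was not counted on these scales.

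The median log2 ratio of the member sites was 0.17 at 6 h against 0.08 for all sites. From 12 to 72 h it was -0.08, -0.06, 0.03, -0.05 and 0.06, against -0.08, -0.06, -0.01, -0.05 and 0.03 for all sites. Among the 66 promoter ratios of the members 3 passed 1.5-fold on the relative scale, all downward, in the Esrp2 site at +1617 bp at 12 h and the Grhl2 site at +1429 bp at 36 and 48 h. In summit reads 9 passed. They were the same 3 and a further 6, of which the Grhl2 site at +3 bp went up at 6 h (log2 ratio 0.75). The others went down, namely Epcam at 24 and 48 h (-0.83 and -0.75), Cldn3 and Cldn4 at 24 h as given above, and the Esrp2 site at +1617 bp at 36 h (-0.91). The share of all promoter sites past the limit was not counted, so whether the member promoters differ from it was not tested.

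**Figure D4:**
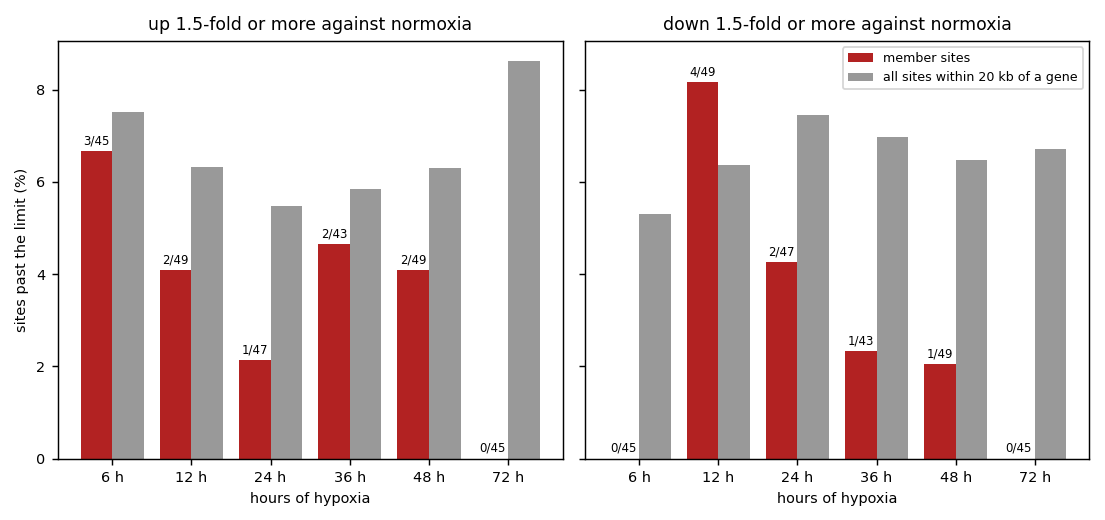
Share of sites (%) at 1.5-fold or more above (left) or below (right) normoxia by hours of hypoxia, for member sites in red, with the number called of the number with a peak in both lists, and for all sites within 20 kb of a gene in grey. The member share lies above the grey bar only at 12 h on the right, at 4 of 49 sites.

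By median percentile over the 7 lists the promoters ordered as Grhl1 (99.5), Grhl2 at +1429 bp (72.9), Cdh1 (72.6), Epcam (70.9), St14 (63.8), Esrp1 (61.3), Esrp2 at +9 bp (61.2), Cldn3 (51.8), Grhl2 at +3 bp (51.0), Cldn4 (50.3) and Esrp2 at +1617 bp (13.4). The Grhl1 range did not overlap any other. The ranges of the 9 from Grhl2 at +1429 bp to Cldn4 overlapped those of their neighbors in the order, so their order is not fixed by these lists. The Esrp2 intronic site, at percentiles 0.357 to 29.8, lay under its neighbor Cldn4 (33.9 to 57.6) in every list.

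The KLF/SP letters GGGCGG were in 11 of 14 member promoter sites (78.6%) against 50.2% of all promoter sites, while the ETS letters CCGGAAG were in 0 of 14 against 11.5%. Median GC content over the 21 promoter sites in the windows was 63.2% against 62.2% for all promoter sites. The letters of the hypoxia-inducible factor motif, ACGTG or GCGTG, were in 8 of 14 promoter sites (57.1%) against 47.6%, and in 12 of 65 other sites (18.5%) against 20.9%. AP-1 letters, TGANTCA, were in 24 of 65 other sites (36.9%) against 40.6%, among them the strongest distal sites of Grhl1, Grhl2 and Cldn4. The TEAD letters GGAATG were in 14 of 65 (21.5%) against 17.3%, including the Cldn4 site without a normoxia peak, and the FOX letters TGTTTAC in 4 of 65 (6.15%) against 3.09%. These shares carry no test, and the letters overlap other families.

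**Figure D5:**
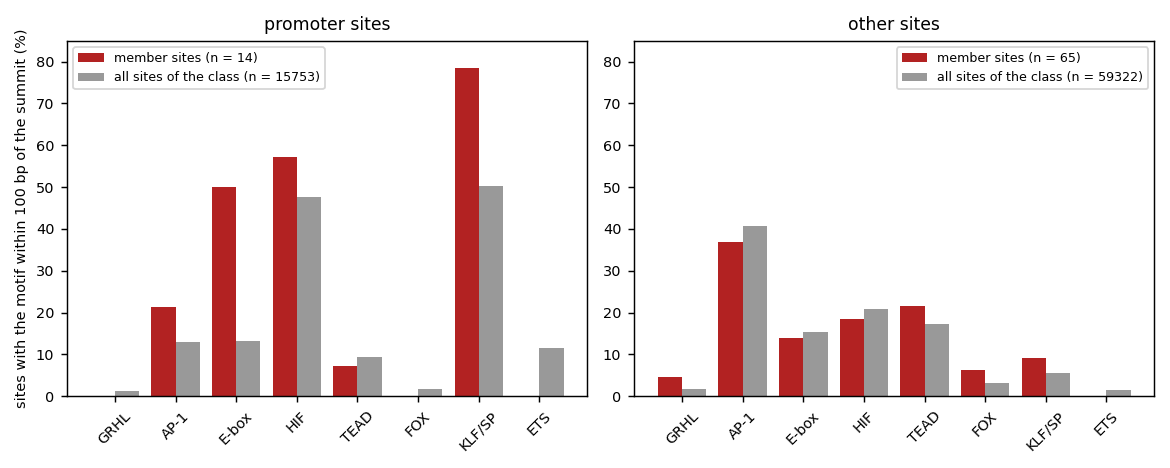
Share of sites (%) with each motif within 100 bp of the summit, for the 14 promoter sites (left) and 65 other sites (right) of the members in red and for all sites of the class in grey. The E-box letters were in 50.0% of member promoter sites and 13.3% of all.

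The wider set of epithelial genes was listed by role: adherens junction, tight junction, desmosome, transcription factors, and surface proteins with protease inhibitors. Of these 50 genes, none of them a member, 33 had a promoter peak in all 7 lists (66.0%, against 46.6% of all genes), 11 in some and 6 in none. Adherens junction genes had 7 of 9 in all lists, among them Ctnnb1, Ctnnd1 and Jup, catenin genes whose products bind cadherins, while Cdh3 (P-cadherin) and Pvrl4 had none. Tight junction genes had 11 of 17 in all lists, with none at Cldn6 and Tjp3. Cldn1 lacked a promoter peak at 72 h, Marveld3 at 24 h, Cldn8 in 3 lists and Crb3 at 6 h. Desmosome genes had 5 of 7, with Dsc2 in 2 lists and Evpl in 1 list.

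Of the 8 epithelial factor genes 5 were open at the promoter throughout. Ovol1, whose product restrains epithelial-mesenchymal transition, lacked one at 72 h, with fold enrichments of 5.71 in normoxia and 5.99, 6.63, 6.68, 7.14 and 5.68 from 6 to 48 h. Ehf was called in 5 lists, and Grhl3, the remaining Grainyhead-like gene, in 0 lists, unlike Grhl1 and Grhl2. Among surface proteins Spint1 and Spint2, which encode inhibitors of matriptase, had a promoter peak in all 7 lists. Prss8 and Ap1m2 had one in 2 lists each, Mal2 in 6 and Rab25 in 0 lists. For Crb3 and Mal2 the 6 h list held a peak whose edge fell just outside the 1 kb limit.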

How the data were processed

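Bulk ATAC-seq of 4T1 cells gave 14 samples in 7 groups. According to the methods section and the processing notes of the submitters, the authors aligned trimmed pairs to mm9 (Bowtie2 2.1.0), took out duplicates (Picard 1.79) and mitochondrial reads, merged replicates and called narrow peaks with MACS2 (version not given in the sources used here). Fold enrichment, as deposited by the authors, is the ratio of reads at the summit to the background around it. Further deposited columns give -log10 of the p-value and of the q-value from the authors' caller, and the lowest -log10 q was 1.30 to 1.31, so the lists hold weaker peaks than the q cutoff in the methods section would keep. A filter of mitochondrial-like and excluded regions that the methods describe was not applied here.

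Peaks that overlapped or touched were merged into sites over the 7 lists, and the summit with the highest -log10 q gave the value. Genes were those of GENCODE vM1 on NCBIM37 (mm9), with all peaks inside its chromosome lengths, and 1 listed gene was matched by an older symbol. Promoters reached 1 kb to either side of all annotated starts. Summit reads were solved from fold and -log10 p and every summit gave a whole number to within 0.000352 in -log10 p. Intervals were exact at 95% and cover counting error only, since PCR reads without molecular identifiers are not independent molecules. Named sites were every promoter site of a member, its strongest non-promoter site, sites in normoxia only or in all 6 hypoxia lists only, and the 5 with the largest mean log2 ratio each way; others were named after their values were seen. Members and lists were chosen with earlier results of these data known. A further marker gene is not reported here. Steps were tested on simulated data. Tools were scipy 1.17.1, numpy 2.4.6, pandas 2.3.3 and matplotlib 3.10.9 under Python 3.11.15.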

Additional observations from a re-analysis of the deposited data

How the results depend on the processing

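No paired analysis was possible because each list pools the 2 replicates of a group, and for the same reason no replicate could be left out. Of 80 comparisons of a count with its alternatives, 63 stayed within 1.5 times. With only the 20000 strongest peaks of each list, 35 sites remained near the members, 9 of them in all 7 lists, 10 were in hypoxia and not in normoxia, and 3 members had a promoter peak in all 7 lists. Within gene bodies alone these counts were 46, 23 and 14, with 9 normoxia peaks missing at a time, as at -log10 q of 5 or more (9). The 10 upward and 8 downward values became 6 and 17 without scaling, which shifts the median log2 ratio of all sites by -0.49, 0.13, -0.14 and -0.25 for 6, 12, 36 and 72 h, 25 and 25 with summit reads, and 1 and 0 at 2-fold; scaling by promoter sites gave 5 downward. With summit reads 9 promoter ratios passed 1.5-fold, in place of 3. Leaving out each hypoxia list in turn gave 41 to 42 sites in all remaining lists, 24 to 29 in hypoxia only, 15 to 16 with a missing normoxia peak, and 9 members with a promoter peak. Percentiles gave an order and no fold. A summit of 5 reads was callable in normoxia, with the lowest genome background (0.926 reads), and 11 were needed at 6 h, with the highest (3.25).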

Other observations

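The windows around the members also held 7 promoter sites of other genes. The sites at the starts of Tmco7 (near Cdh1), Wbscr27 (near Cldn4), Ctdnep1 and Rai12 (near Cldn7), Dpy19l4 (near Esrp1) and Pla2g15 (near Esrp2) had a peak in all 7 lists. The shared start region of Ctdnep1 and Rai12, 15886 bp past the Cldn7 start, had fold enrichments of 10.9 in normoxia and 7.86, 12.0, 10.9, 8.80, 11.7 and 9.60 in hypoxia, in a window where Cldn7 itself had no promoter peak. Near Slc2a4, which encodes the insulin-responsive glucose transporter, 1 weak peak was called in normoxia and another at 48 h only. The Pla2g15 promoter was highest in normoxia, with a fold enrichment of 11.8, and its ratio to normoxia was 0.581 at 24 h with an interval of the log2 read ratio of -1.88 to -0.11.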
